A study of Bubalus bubalis with 12 samples.

Results

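The Wnt, Notch, semaphorin, ephrin, Slit and netrin genes encode the ligands, receptors and secreted regulators by which neighbouring cells pass positional signals to each other. They were taken from the array annotation by the letters of their symbols (WNT, FZD, DKK, SFRP, NOTCH, JAG, DLL, SEMA, PLXN, NRP, EPH, EFN, SLIT, ROBO, UNC5 and NTN). This selection found 45 genes, measured by 67 probe sets, among the 9155 genes for which a probe set with a single gene symbol was present. They comprised 13 Wnt genes (3 ligands, 4 Frizzled receptors and 6 secreted regulators), 3 Notch genes, 12 semaphorin genes (5 ligands and 7 plexin or neuropilin receptors), 9 ephrin genes (6 ligands and 3 Eph receptors), 5 Slit genes (2 ligands and 3 Robo receptors) and 2 netrins. The remaining gene, UNC50, matched by its letters alone and is not an UNC5 netrin receptor.

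RNA came from the whole corpus luteum (CL), the gland that forms in the ovulated follicle and makes progesterone, of Bubalus bubalis cows with regular cycles. Control CL were collected on day 11 of the estrous cycle without treatment (0 h, n = 4). The treated cows were given 500 µg of cloprostenol, an analogue of PGF2α, into the muscle on day 11, and their CL were collected 3 h (n = 2), 6 h (n = 3) or 18 h (n = 3) later. Each of the 12 samples was measured on 1 GeneChip Bovine Genome Array, whose probes were designed on cattle sequence. The sample titles number them as biological replicates and name no animal. The deposited values were on a log2 scale after robust multichip average (RMA) processing. A difference of 1 is thus a change of 2-fold, and levels of different probe sets are not a measure of which gene has more RNA. They are used here only to place a probe set as bright or dim on the array.

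In Wnt signalling, secreted Wnt ligands bind Frizzled receptors on the cell surface, the secreted frizzled-related proteins (SFRP) bind the ligands, and the Dickkopf protein DKK1 blocks the LRP co-receptor. Notch receptors are cleaved after contact with a Jagged or Delta ligand on the next cell, and the freed part acts in the nucleus. Semaphorins signal through plexins, with neuropilins as co-receptors that also bind VEGF. Ephrins and Eph receptors signal at cell contacts, and Slits and netrins are secreted cues known from axon guidance and, like many of these genes, from the growth of blood vessels, of which the CL has a dense network.

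The tissue carried the markers of luteal cells. The mean log2 value in control CL was 14.80 for STAR, 14.28 for CYP11A1 and 14.86 for HSD3B1, and of the follicular markers it was 4.96 for FSHR, 6.19 for AMH and 8.36 for CYP19A1. Array medians lay between 7.09 and 7.17. Control replicates 1 and 4 were nearly alike, with 6 probe sets over 2-fold apart. All other pairs of arrays within a group had 220 or more, up to 1306 for the 2 arrays at 3 h. Among the 45 genes, control replicates 1 and 4 differed by at most 0.60 and control replicates 2 and 3 by up to 1.33. Controls 2 and 3 were both above controls 1 and 4 for 21 genes and both below them for 4. The arrays at 3 h were over 2-fold apart for 3 of the 45 genes. Of the 45 genes, 32 had a mean above the dimmest 40% of probe sets (a log2 value of 6.52) and 13 lay below it.

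No gene of these families passed the test at 3 h, 7 did so at 6 h and 11 at 18 h. A call is an adjusted p under 0.05 in limma, with Benjamini-Hochberg adjustment over the 24016 probe sets of the array within a comparison. At 3 h against 0 h the called share of all genes was 0.0328% (3 of 9155), and an unadjusted p under 0.05 was reached by 6 of the 45 genes (13.3%) against 10.9% of all genes. At 6 h, 5 genes rose (DLL4, ROBO4, DKK1, EFNB1 and EPHA2) and 2 fell (SEMA6D and PLXNC1). That was 15.6% of the 45 genes, beside 14.2% of all genes, with 11.1% higher and 4.44% lower beside 6.55% and 7.66% of all genes. At 18 h, 6 genes rose (DLL4, FZD3, EFNA1, EFNA4, NTN4 and NRP2) and 5 fell (ROBO2, FZD4, SEMA6D, NRP1 and PLXNC1). The share was 24.4% beside 15.9% of all genes, with 13.3% higher and 11.1% lower beside 7.55% and 8.35%. The F test over the 3 contrasts with 0 h called 10 of the 45 genes (22.2%) and 14.1% of all genes. The F-test calls were DLL4, ROBO4, FZD3, FZD4, DKK1, EFNA1, EFNA4, EFNB1, NTN4 and PLXNC1. No test of the families as a group was made, and the comparisons with 0 h share the 4 control arrays. Control replicates 1 and 4, numbered as separate biological replicates, were nearly alike, and whether they are independent was not tested. With these 2 arrays averaged, 2 genes were called at 6 h and 6 at 18 h. With the replicate number as a block, 1 was called at 6 h and 5 at 18 h. The losses of calls given gene by gene below are, unless stated, those with 1 array left out.

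**Figure D1:**
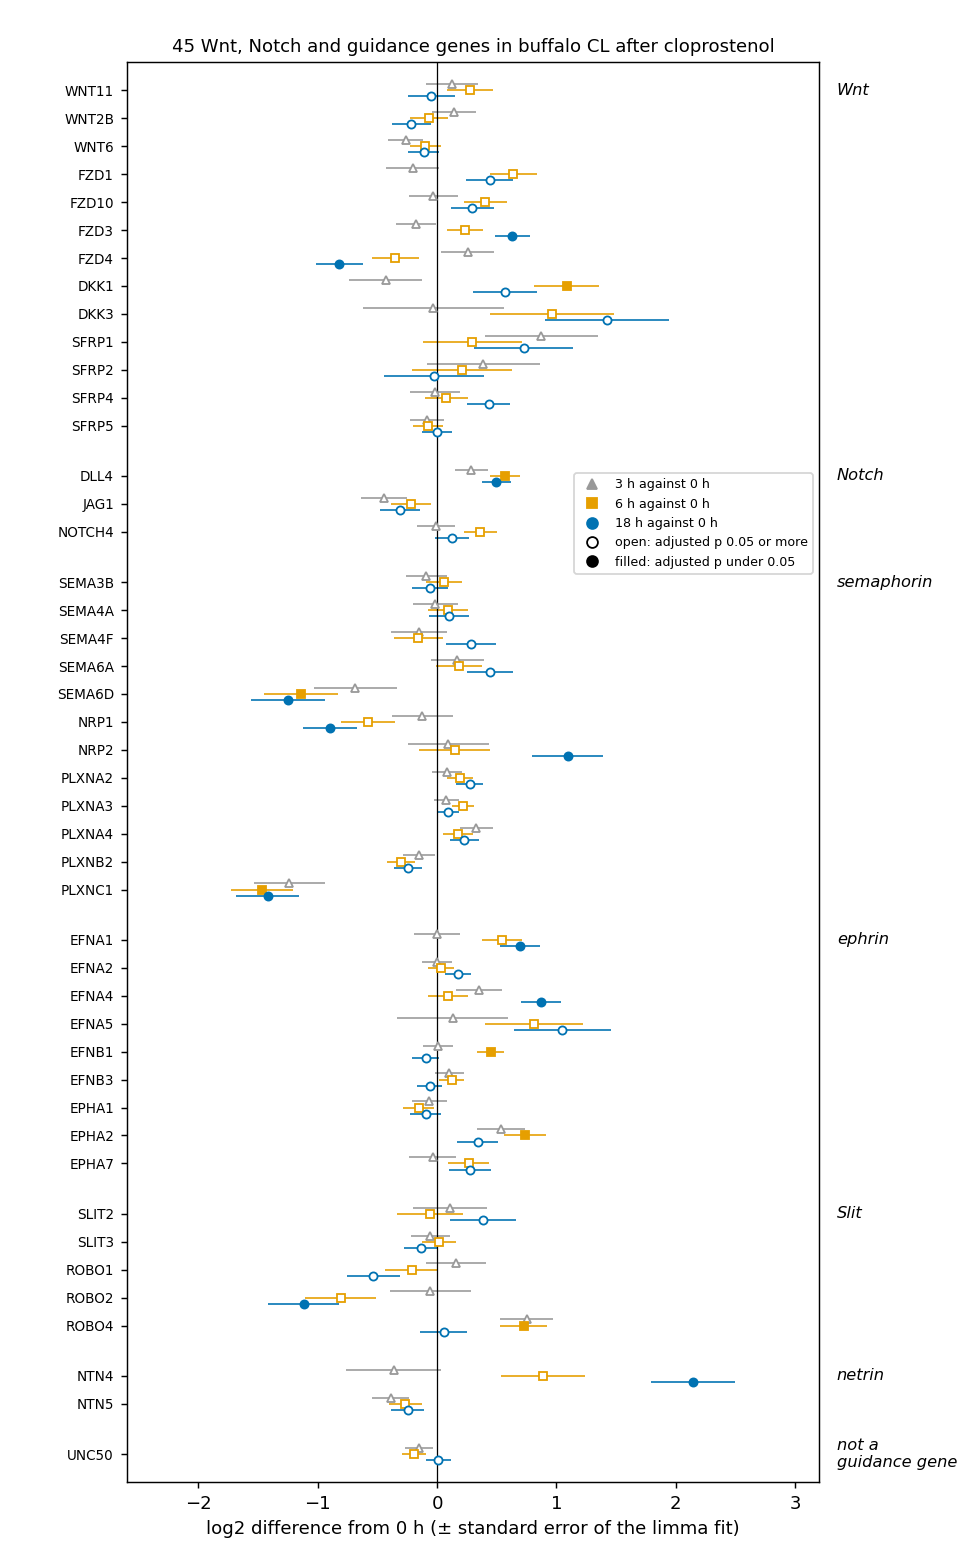
Log2 difference from 0 h (x axis, ± standard error of the limma fit) of each of the 45 genes (y axis, by family), with grey triangles for 3 h (n = 2), orange squares for 6 h (n = 3) and blue circles for 18 h (n = 3), each against 4 control arrays. Filled symbols mark an adjusted p under 0.05, and the widest spans are the rise of NTN4 to 2.14 at 18 h and the falls of PLXNC1 to -1.47 at 6 h and -1.42 at 18 h.

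The middle of the families moved little. The median log2 difference of the 45 genes from 0 h was -0.02 at 3 h, 0.12 at 6 h and 0.10 at 18 h, beside -0.01, -0.05 and -0.02 over all genes. The median size of the difference, without its sign, was 0.14, 0.23 and 0.30 beside 0.14, 0.19 and 0.20. Split by role at 18 h, 4 of 20 ligands rose and 1 fell, 2 of 18 receptors rose and 4 fell, and none of the 6 secreted regulators passed the test, beside 7.55% higher and 8.35% lower among all genes. At 6 h, 2 ligands rose and 1 fell, 2 receptors rose and 1 fell, and 1 secreted regulator rose, beside 6.55% and 7.66%. The split by role was not tested. Since the samples were whole tissue, fewer cells of a type and less RNA per cell cannot be told apart in any of these values.

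NTN4, which encodes netrin-4, a laminin-related protein of basement membranes, had the largest rise. Its log2 value was 5.96, 7.10, 7.28 and 6.26 in control replicates 1 to 4, 6.33 and 6.24 at 3 h, 8.09, 7.34 and 7.18 at 6 h, and 8.16, 8.98 and 9.22 at 18 h. The 18 h arrays lay above all other arrays, and the 6 h arrays overlapped the controls. The difference from 0 h was -0.36 ± 0.40 (SE) at 3 h (adjusted p = 0.82), 0.89 ± 0.35 at 6 h (adjusted p = 0.136) and 2.14 ± 0.35 at 18 h, 4.41-fold (adjusted p = 0.00304). This call remained with any 1 array left out. The other netrin, NTN5, was not called at any time, with differences of -0.39 ± 0.16, -0.27 ± 0.14 and -0.25 ± 0.14 at 3, 6 and 18 h.

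PLXNC1, a plexin that serves as the receptor of semaphorin 7A, had the deepest fall. Its log2 value was 9.99, 10.77, 11.02 and 10.10 in the controls, 8.90 and 9.57 at 3 h, 8.95, 9.34 and 8.73 at 6 h, and 8.82, 9.19 and 9.14 at 18 h. All 8 treated arrays were below the lowest control. PLXNC1 fell by 1.47 ± 0.26 on the log2 scale at 6 h, 2.76-fold (adjusted p = 0.00679), and fell by 1.42 ± 0.26 at 18 h, 2.68-fold (adjusted p = 0.00541). The difference at 3 h, from 2 arrays, was similar in size, at -1.24 ± 0.30. It was not called (in limma, unadjusted p = 0.00152 and adjusted p = 0.218). Both calls remained in every alternative tried.

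Among the semaphorin ligands, SEMA6D, a membrane-bound semaphorin, fell at both later times. It was at 8.89, 8.18, 7.78 and 8.83 in the controls, 8.24 and 7.24 at 3 h, 7.38, 7.08 and 7.37 at 6 h, and 7.48, 6.68 and 7.35 at 18 h. Every array at 6 and 18 h was below the lowest control, and the 3 h arrays lay to either side of it. SEMA6D fell by 1.14 ± 0.31 at 6 h, 2.21-fold (adjusted p = 0.0361), and fell by 1.25 ± 0.31 at 18 h, 2.38-fold (adjusted p = 0.0228). Its other probe set also fell, with differences of -0.79 (adjusted p = 0.0217) and -0.99 (adjusted p = 0.0061). The call at 6 h was lost without control replicate 1, 2 or 4 or without any of the 3 arrays at 6 h (adjusted p from 0.056 to 0.132), and that at 18 h without control replicate 1 or 4 or 18 h replicate 2 (adjusted p 0.0683 to 0.0951).

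The neuropilins, co-receptors for the secreted semaphorins and for VEGF, went opposite ways at 18 h. NRP1, the neuropilin of arterial endothelium, was at 12.05, 11.79, 11.51 and 12.05 in the controls, 11.32 and 12.13 at 3 h, 11.22, 11.09 and 11.50 at 6 h, and 10.52, 11.27 and 11.07 at 18 h. NRP2, known from veins and lymphatic vessels, was at 8.13, 8.40, 8.34 and 8.23 in the controls, 7.65 and 9.09 at 3 h, 8.87, 8.37 and 8.02 at 6 h, and 9.32, 9.07 and 9.70 at 18 h. The 18 h arrays were all below the controls for NRP1 and all above them for NRP2. NRP1 fell by 0.89 ± 0.23, 1.86-fold (adjusted p = 0.0254), after a difference of -0.58 ± 0.23 at 6 h that was not called (adjusted p = 0.131). NRP2 rose by 1.09 ± 0.30, 2.13-fold (adjusted p = 0.0348), with 0.15 ± 0.30 at 6 h (adjusted p = 0.834). Its other probe set rose by 0.78 (adjusted p = 0.0205). The NRP1 call was lost without control replicate 1 or 4 or 18 h replicate 1 or 3 (adjusted p 0.0542 to 0.118), and the NRP2 call without control replicate 1, 2 or 4, 6 h replicate 2 or any 18 h array (adjusted p 0.05003 to 0.127). Both were also lost with the replicate block (adjusted p = 0.0988 and 0.12) and with control replicates 1 and 4 averaged (0.0739 and 0.0872). The F test called neither gene (adjusted p = 0.0708 for NRP1 and 0.096 for NRP2). PLXNB2, a receptor of class 4 semaphorins, had differences of -0.15 ± 0.13, -0.30 ± 0.12 and -0.25 ± 0.12 and was called only without control replicate 3, at 6 h (-0.40, adjusted p = 0.0227) and at 18 h (-0.34, adjusted p = 0.0408). The other 7 semaphorin genes, SEMA3B, SEMA4A, SEMA4F, SEMA6A, PLXNA2, PLXNA3 and PLXNA4, lay between -0.16 and 0.45 at the 3 times and were not called.

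**Figure D2:**
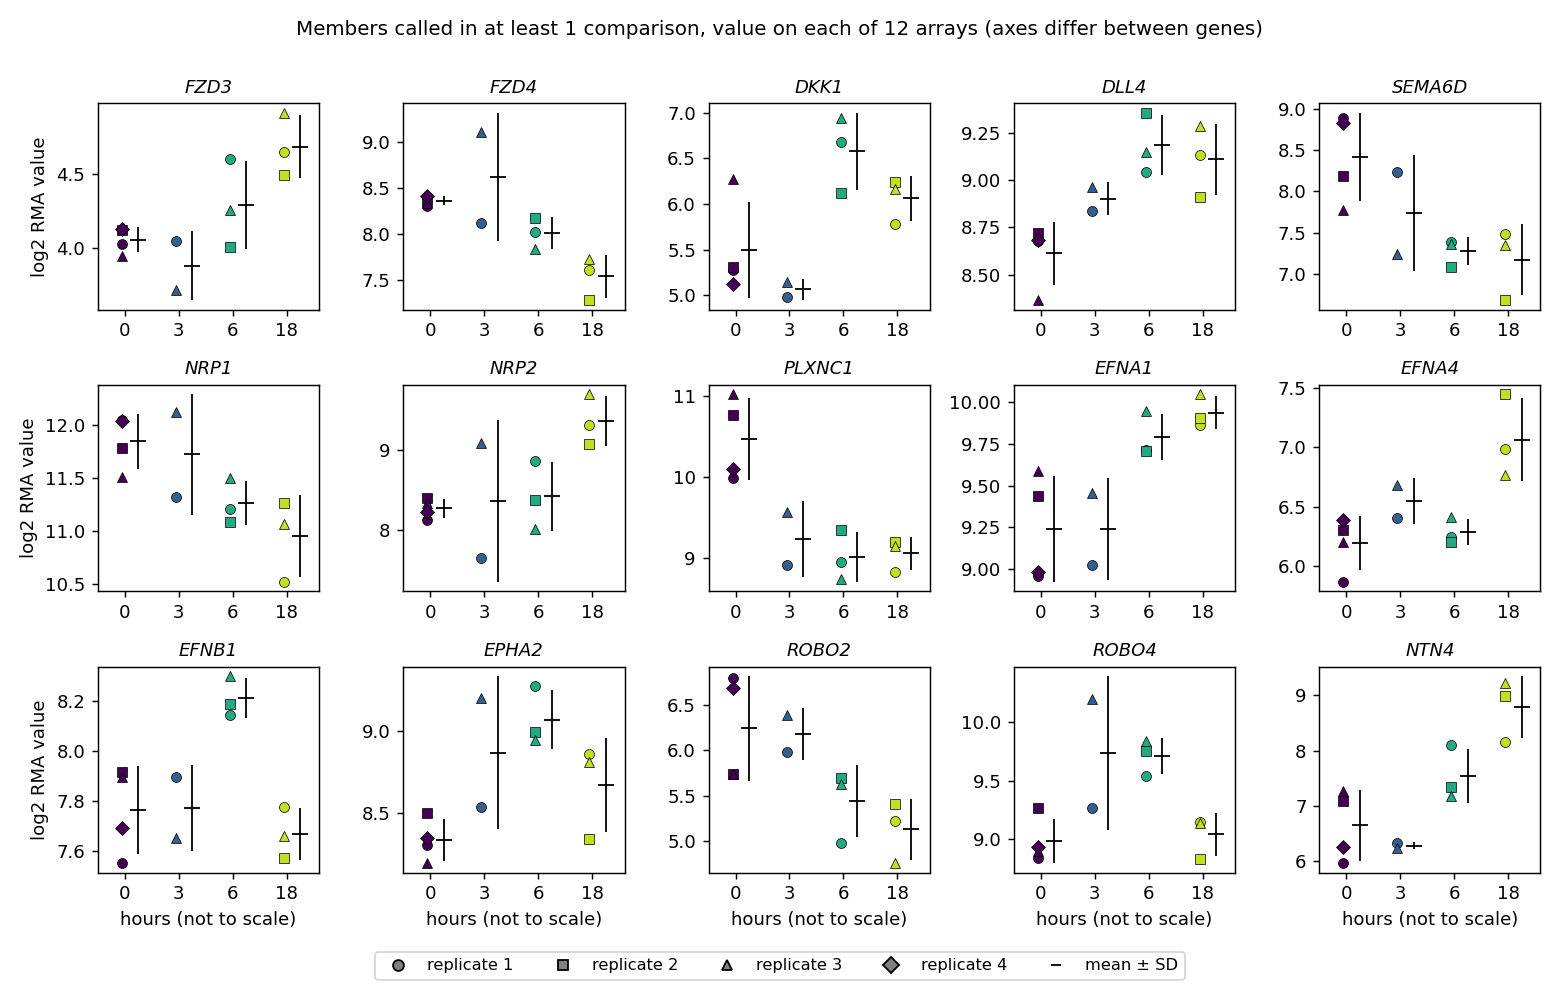
Log2 RMA value (y axis, with a different range in each panel) of the 15 genes called in at least 1 comparison on each of the 12 arrays, by hours after cloprostenol (x axis, not to scale). Symbols give the replicate number and bars the mean ± SD of 4, 2, 3 and 3 arrays. PLXNC1 lies below its controls on all treated arrays, EFNB1 is high at 6 h alone, and EFNA4 and NTN4 have their highest values at 18 h.

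In the Wnt family the receptors differed among themselves. FZD4, the endothelial Frizzled that also binds norrin, was at 8.31, 8.38, 8.33 and 8.42 in the controls, 8.12 and 9.11 at 3 h, 8.02, 8.17 and 7.83 at 6 h, and 7.61, 7.28 and 7.73 at 18 h. The 18 h arrays were below all others. FZD4 fell by 0.82 ± 0.20, 1.76-fold (adjusted p = 0.0192), with -0.35 ± 0.20 at 6 h (adjusted p = 0.304). Its other probe set gave -0.29 at 18 h and was not called (adjusted p = 0.0793). FZD3 was at 4.03, 4.12, 3.94 and 4.12 in the controls, 4.04 and 3.71 at 3 h, 4.60, 4.01 and 4.25 at 6 h, and 4.65, 4.49 and 4.91 at 18 h, all of it in the dimmest range of the array. It rose by 0.63 ± 0.15 at 18 h, 1.55-fold (adjusted p = 0.0184), with the 18 h arrays above every control. At 18 h the FZD3 call was lost without control replicate 1 or 18 h replicate 1 or 3 (adjusted p 0.0514 to 0.0793), and the FZD4 call without control replicate 4 or 18 h replicate 1 or 2 (adjusted p 0.0535 to 0.0805).

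FZD1, described here because its probe sets disagreed and not by the rule for named genes, had differences of 0.64 ± 0.19 at 6 h (adjusted p = 0.0576) and 0.44 ± 0.19 at 18 h (adjusted p = 0.178). Its dimmer probe set was called at both times, at 1.08 (adjusted p = 0.0375) and 1.09 (adjusted p = 0.034). FZD1 was also called at both times with the mean of its probe sets, and at 6 h with the filter on dim probe sets and without control replicate 2 or 3. FZD10, SFRP5 and the Wnt ligands WNT2B, WNT6 and WNT11 were not called against 0 h, and with FZD1 they lay between -0.26 and 0.64.

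Of the secreted Wnt regulators, DKK1 rose at 6 h. It was at 5.28, 5.30, 6.27 and 5.12 in the controls, 4.98 and 5.15 at 3 h, 6.67, 6.12 and 6.94 at 6 h, and 5.78, 6.25 and 6.16 at 18 h. Control replicate 3 was above 6 h replicate 2 and below the other 6 h arrays, so these groups overlapped. The rise at 6 h was 1.08 ± 0.27, 2.12-fold (adjusted p = 0.0264), and the difference at 18 h, 0.57 ± 0.27, was not called (adjusted p = 0.209) except without control replicate 3 (0.83, adjusted p = 0.0168). The 6 h call was lost without control replicate 1, 2 or 4 or 6 h replicate 1 or 3 (adjusted p 0.0646 to 0.094). The other probe set gave 0.41 at 6 h (adjusted p = 0.129). Both DKK1 probe sets lay in the dimmest 40% of the array, with means of 5.84 and 5.20.

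DKK3, a Dickkopf relative, had the largest difference from 0 h that was not called, 1.42 ± 0.52 at 18 h (adjusted p = 0.102), after -0.03 ± 0.59 at 3 h and 0.96 ± 0.52 at 6 h. Its controls fell into a low pair (7.18 and 7.27 in replicates 1 and 4) and a high pair (8.92 and 9.15 in replicates 2 and 3), and without control replicate 3 the difference at 18 h was 1.76 (adjusted p = 0.0361). SFRP1 had the same split, with 8.07 and 7.86 in control replicates 1 and 4 and 9.15 and 9.72 in replicates 2 and 3. Its differences were 0.87 ± 0.47, 0.30 ± 0.42 and 0.73 ± 0.42 at 3, 6 and 18 h. SFRP4 gave -0.02 ± 0.21, 0.08 ± 0.18 and 0.43 ± 0.18, and SFRP2, which is low on these arrays, 0.39 ± 0.47, 0.21 ± 0.42 and -0.03 ± 0.42. None of these passed the test.

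In the Notch family the Delta ligand DLL4, known from endothelial tip cells and arteries, rose. It was at 8.68, 8.72, 8.36 and 8.68 in the controls, 8.84 and 8.96 at 3 h, 9.04, 9.36 and 9.15 at 6 h, and 9.13, 8.91 and 9.29 at 18 h. All 8 treated arrays were above the highest control. The difference was 0.29 ± 0.14 at 3 h (adjusted p = 0.536), 0.57 ± 0.12 at 6 h, 1.49-fold (adjusted p = 0.0155), and 0.50 ± 0.12 at 18 h, 1.41-fold (adjusted p = 0.0243). The 6 h call was lost without 6 h replicate 2 (adjusted p = 0.0757) and the 18 h call without 18 h replicate 1 or 3 (adjusted p 0.0856 to 0.0991). Both were also lost with the replicate block (adjusted p = 0.0706 and 0.09). The endothelial receptor NOTCH4 gave -0.01 ± 0.16, 0.36 ± 0.14 (adjusted p = 0.127) and 0.13 ± 0.14, and the ligand JAG1 -0.44 ± 0.19, -0.22 ± 0.17 and -0.31 ± 0.17, with no call.

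Among the ephrins, EFNA1 and EFNA4 rose at 18 h. EFNA4 was at 5.87, 6.31, 6.21 and 6.39 in the controls, 6.41 and 6.68 at 3 h, 6.25, 6.20 and 6.41 at 6 h, and 6.98, 7.45 and 6.77 at 18 h. The 18 h arrays were above all others, while the 6 h arrays lay close to the controls. It rose by 0.87 ± 0.17, 1.83-fold (adjusted p = 0.00687), after 0.09 ± 0.17 at 6 h, and the call remained with any 1 array left out. The mean of its probe set, 6.49, was just inside the dimmest 40% of probe sets (limit 6.52). The filter on dim probe sets therefore gave no value for EFNA4. EFNA1, an ephrin known from endothelium exposed to inflammatory cytokines, was at 8.96, 9.44, 9.59 and 8.99 in the controls, 9.03 and 9.46 at 3 h, 9.72, 9.71 and 9.95 at 6 h, and 9.86, 9.91 and 10.05 at 18 h. Its 6 h and 18 h arrays lay above every control. The difference was 0.55 ± 0.17 at 6 h (adjusted p = 0.0574) and 0.69 ± 0.17 at 18 h, 1.62-fold (adjusted p = 0.0197). At 6 h EFNA1 was called without control replicate 3 (0.66, adjusted p = 0.0182), without either or both of the 3 h arrays (adjusted p = 0.0404), with the filter on dim probe sets (adjusted p = 0.0447) and with gene means (adjusted p = 0.0495). The 18 h call was lost without control replicate 1 or 4 or any 18 h array (adjusted p 0.0533 to 0.073).

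EFNB1 and EPHA2 rose at 6 h. EFNB1, a transmembrane ephrin, was at 7.55, 7.92, 7.90 and 7.69 in the controls, 7.89 and 7.65 at 3 h, 8.15, 8.19 and 8.30 at 6 h, and 7.77, 7.57 and 7.66 at 18 h. The 6 h arrays were above all others and the 18 h arrays lay within the control range. The difference was 0.45 ± 0.11 at 6 h, 1.36-fold (adjusted p = 0.0273), and -0.10 ± 0.11 at 18 h. EPHA2, a receptor of the A-type ephrins, was at 8.30, 8.50, 8.19 and 8.35 in the controls, 8.54 and 9.20 at 3 h, 9.28, 8.99 and 8.94 at 6 h, and 8.86, 8.34 and 8.81 at 18 h. Arrays at 3 h and 6 h were all above the controls and those at 18 h overlapped them. EPHA2 rose by 0.74 ± 0.17 at 6 h, 1.67-fold (adjusted p = 0.0211), with 0.54 ± 0.20 at 3 h (adjusted p = 0.412) and 0.34 ± 0.17 at 18 h (adjusted p = 0.252). The EFNB1 call was lost without control replicate 1 or 4 or any 6 h array (adjusted p 0.0655 to 0.0905), and the EPHA2 call without control replicate 1 or 4 or 6 h replicate 1 or 2 (adjusted p 0.0542 to 0.0916).

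EFNA5 was not called. Its controls lay between 6.66 and 6.84, while the 6 h arrays were at 7.86, 6.95 and 7.77 and the 18 h arrays at 9.06, 7.25 and 6.98, all above the controls. The 18 h difference was 1.05 ± 0.41 (adjusted p = 0.124), and 18 h replicate 1 stood well above the other arrays of its group. The 6 h difference was 0.81 ± 0.41 (adjusted p = 0.247), and was called without 18 h replicate 1 (adjusted p = 0.0336). EFNA2, EFNB3, EPHA1 and EPHA7 lay between -0.15 and 0.28 with no call.

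In the Slit family the receptors ROBO4 and ROBO2 were called in opposite directions and at different times. ROBO4, the endothelial Robo, was at 8.84, 9.27, 8.90 and 8.93 in the controls, 9.27 and 10.20 at 3 h, 9.54, 9.76 and 9.84 at 6 h, and 9.15, 8.83 and 9.14 at 18 h. The 6 h arrays were above all controls. At 18 h, replicates 1 and 3 were within the control range and replicate 2 just below it. The difference was 0.75 ± 0.22 at 3 h (adjusted p = 0.305), 0.73 ± 0.20 at 6 h, 1.66-fold (adjusted p = 0.0357), and 0.06 ± 0.20 at 18 h. The 3 h arrays lay far apart, and without 3 h replicate 1 the difference at 3 h was 1.22 and was called (adjusted p = 0.00993). The 6 h call was lost without control replicate 1, 3 or 4 or any 6 h array (adjusted p 0.0548 to 0.117).

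ROBO2, a receptor best known from neurons and kidney, was at 6.80, 5.74, 5.74 and 6.69 in the controls, 5.98 and 6.39 at 3 h, 4.98, 5.70 and 5.63 at 6 h, and 5.22, 5.41 and 4.75 at 18 h. The 18 h arrays were below every control, on a probe set among the dimmest. ROBO2 fell by 1.12 ± 0.30 at 18 h, 2.17-fold (adjusted p = 0.0322), with -0.81 ± 0.30 at 6 h (adjusted p = 0.111). The call was lost without control replicate 1 or 4 or 18 h replicate 1 or 3 (adjusted p 0.0844 to 0.121). ROBO1 was not called, at 0.16 ± 0.25, -0.21 ± 0.22 and -0.54 ± 0.22 (adjusted p = 0.149 at 18 h). The ligands SLIT2 (0.11 ± 0.31, -0.06 ± 0.27 and 0.38 ± 0.27) and SLIT3 (-0.06 ± 0.16, 0.01 ± 0.14 and -0.13 ± 0.14) were not called either. UNC50 gave -0.15 ± 0.12, -0.19 ± 0.10 and 0.01 ± 0.10.

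Differences between treated times were called for 3 of the 45 genes, all at 18 h against 3 h. That was 6.67% of the genes beside 3.78% of all genes. NTN4 was higher at 18 h by 2.51 ± 0.42, 5.68-fold (adjusted p = 0.0123), FZD3 by 0.81 ± 0.18, 1.75-fold (adjusted p = 0.038), and FZD4 was lower, at -1.07 ± 0.23, 2.11-fold (adjusted p = 0.0356). The NTN4 call remained with any 1 array left out. The FZD3 and FZD4 calls were each lost in 7 of 12 such fits (adjusted p 0.0542 to 0.124 for FZD3 and 0.0531 to 0.0956 for FZD4), and FZD4 gave -0.58 without 3 h replicate 3 and -1.57 without 3 h replicate 1. Both calls were lost without control replicate 1, 2 or 4, 18 h replicate 1 or 3, or 3 h replicate 3. The FZD3 call was also lost without 6 h replicate 3, and the FZD4 call without 18 h replicate 2. Control and 6 h arrays enter this comparison only through the shared estimate of the spread. Without these control arrays the differences stayed at 0.81 for FZD3 and -1.07 for FZD4, and without 6 h replicate 3 that of FZD3 stayed at 0.81.

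At 6 h against 3 h limma called none of the 45 genes and 0.229% of all genes, with 8 of the 45 (17.8%) at an unadjusted p under 0.05 beside 15.2%. At 18 h against 6 h it called none and 0.644% of all genes, with 7 (15.6%) beside 13.8%. The genes that were called at 6 h but not at 18 h are therefore not shown to differ between those times. EFNB1 was lower at 18 h than at 6 h by -0.55 ± 0.12 (adjusted p = 0.0844) and ROBO4 by -0.67 ± 0.21 (adjusted p = 0.216). In the other direction, NTN4 was at 1.25 ± 0.38 (adjusted p = 0.195), EFNA4 at 0.78 ± 0.18 (adjusted p = 0.101) and NRP2 at 0.95 ± 0.32 (adjusted p = 0.256).

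**Figure D3:**
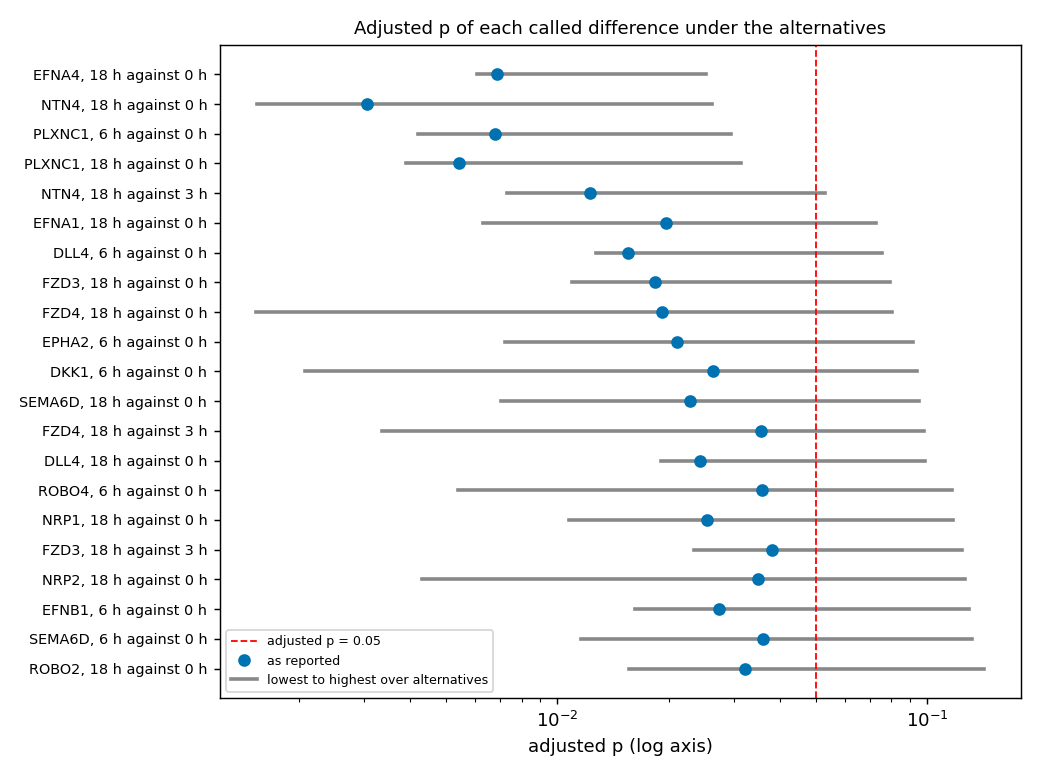
Adjusted p from limma (x axis, log scale) of the 21 calls of 15 genes (y axis, each with its comparison), with a blue point for the value with all arrays, a grey line from the lowest to the highest value over 12 fits with an array left out and the other alternatives, and a red dashed line at 0.05. The lines of 4 calls end below 0.05, those of PLXNC1 at 6 h and 18 h and of NTN4 and EFNA4 at 18 h, and the line of ROBO2 reaches highest, to 0.143. The filter on dim probe sets gave no value for EFNA4, FZD3, ROBO2 and DKK1.

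Some markers of other cell types of the CL were also called at 6 h and 18 h. Of 11 endothelial markers measured, 4 rose and 1 fell at 6 h, and 5 rose and 1 fell at 18 h. Among all genes, 6.55% were called higher and 7.66% lower at 6 h, and 7.55% and 8.35% at 18 h. No marker list was tested as a group. PECAM1 rose by 1.64 ± 0.20 and 1.03 ± 0.20 at 6 h and 18 h, and NOS3 by 1.58 ± 0.27 and 1.33 ± 0.27, while EMCN fell by 1.61 ± 0.19 and 1.52 ± 0.19. KDR and FLT1 were not called lower, but their means were 5.82 and 9.03 in the controls and 5.30 and 8.67 at 18 h. The mean log2 value of the endothelial list lay between 8.61 and 8.95 in the controls, 8.89 and 9.07 at 3 h, 8.94 and 9.26 at 6 h, and 9.02 and 9.10 at 18 h. Among the genes described above as known from endothelium or vessels, DLL4, EFNA1 and NRP2 were called higher at 18 h. The list mean was higher then too. NRP1 and FZD4 were called lower at 18 h. ROBO4 and NOTCH4 were not called at 18 h, with differences of 0.06 ± 0.20 and 0.13 ± 0.14. The part of the endothelial markers in these results was not tested.

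Some markers of stromal cells and macrophages also rose. Their counts and those below stand beside called shares of all genes of 14.2% at 6 h and 15.9% at 18 h. Of 8 mural and smooth muscle markers 3 rose at 6 h and at 18 h (TAGLN, CNN1 and DES). TAGLN and CNN1 had means of 9.92 and 8.11 in the controls and 12.19 and 10.89 at 18 h. MYH11 alone had lower means, at 10.64 in the controls, 10.02 at 6 h and 10.29 at 18 h, and was not called. RGS5 and PDGFRB were not called either, with means of 9.4 and 7.7 in the controls and 9.55 and 8.04 at 18 h. The mean of the mural list went from between 8.81 and 9.66 in the controls to between 9.90 and 10.23 at 18 h. Of 6 fibroblast markers 3 rose at 18 h, among them PDGFRA by 3.05 ± 0.57. COL1A2 and COL3A1 were not among them, with means of 13.46 and 13.94 in the controls and 13.47 and 13.72 at 18 h. The list mean was between 11.82 and 12.82 in the controls and between 12.91 and 13.31 at 18 h. Of 5 macrophage markers CD14 rose at 6 h and CD14 and CD68 at 18 h, with list means of 7.79 to 9.01 in the controls and 8.91 to 9.56 at 18 h. Of 8 luteal markers 1 fell at 6 h and 4 at 18 h, with list means of 13.29 to 13.66 in the controls and 12.34 to 12.91 at 18 h. The 6 markers of T and B cells and the 3 of neutrophils were not called, and the mean of the neutrophil list was 9.63 and 12.08 on the 2 arrays at 3 h. Of 3 markers of granulosa cells, CYP19A1 fell at 6 h and 18 h. The part of these cells in the rise of NTN4, NRP2 and EFNA4 or the fall of PLXNC1 and SEMA6D was not tested.

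The genes downstream of these receptors were read from 5 lists of pathway members, whose counts stand beside called shares of all genes of 14.2% at 6 h and 15.9% at 18 h. No list was tested as a group, and the values below are those of single genes. Outside the 45 genes above, 26 of 40 listed Wnt receptors, transducers and secreted regulators were measured. Of these, 4 rose and 1 fell at 6 h, and 3 rose and 2 fell at 18 h. The medians of the 26 genes were 0.01 and 0.08. TCF7, a transcription factor that binds β-catenin, rose by 2.78 ± 0.42 at 6 h, 6.89-fold (adjusted p = 0.00344), and by 2.07 ± 0.42 at 18 h, 4.19-fold (adjusted p = 0.00891). WLS, which carries Wnt ligands to the cell surface, rose by 0.94 ± 0.21 (adjusted p = 0.0185) and 1.81 ± 0.21, 3.50-fold at 18 h (adjusted p = 0.000572). CSNK1A1, a kinase that marks β-catenin for destruction, rose at 6 h by 0.60 ± 0.11 (adjusted p = 0.00658), and ROR2, a receptor of WNT5A, rose at 18 h by 0.95 ± 0.21 (adjusted p = 0.0148). FRZB, a secreted frizzled-related protein whose symbol the selection did not match, fell by 1.51 ± 0.40 at 18 h, 2.85-fold (adjusted p = 0.0317). The remaining calls were TLE3, which rose at 6 h, LGR4, which fell at 6 h, and DVL2, which fell at 18 h.

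Of 7 measured Wnt target genes (15 listed), TCF7 and MYC rose and CCND1 fell at 6 h, and TCF7 rose and CCND1 fell at 18 h. TCF7 is the same gene as on the list of 26 above and is counted in both lists. On that list LEF1 and TCF7L2 gave 0.05 ± 0.32 and -0.09 ± 0.38 at 6 h and were not called. AXIN2, the target most often read as a sign of β-catenin signalling, gave 0.14 ± 0.15, 0.17 ± 0.13 and 0.19 ± 0.13 at 3, 6 and 18 h and was not called. CCND1, which encodes cyclin D1, fell by 0.90 ± 0.16 at 6 h (adjusted p = 0.00674) and by 1.08 ± 0.16 at 18 h (adjusted p = 0.00183).

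Of 20 measured genes for Notch processing and its nuclear partners (33 listed), DTX1 rose at 6 h by 1.48 ± 0.34 (adjusted p = 0.0185). At 18 h DTX2 rose by 0.51 ± 0.11 (adjusted p = 0.0095), NUMBL rose by 0.54 ± 0.12 (adjusted p = 0.0119) and NUMB fell by 0.42 ± 0.12 (adjusted p = 0.0391). DTX1 and DTX2 encode Deltex ubiquitin ligases that act on Notch, and NUMB and NUMBL encode adaptors known to restrain Notch. Of 4 measured Notch target genes (11 listed), the called ones were MYC, which rose at 6 h, and CCND1, which fell at 6 h and 18 h, and both also stood on the Wnt target list. HEY1, a direct Notch target of endothelium, gave 0.32 at 6 h and -0.17 at 18 h and was not called.

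Of 24 measured partners and effectors of guidance receptors (47 listed), 4 rose and 1 fell at 6 h, and 3 rose and 2 fell at 18 h. SRGAP1, which binds Robo receptors, rose by 1.12 ± 0.12 at 6 h, 2.18-fold (adjusted p = 0.000729), and was lower at 18 h than at 6 h, at -0.88 ± 0.13 (adjusted p = 0.0217). CXCR4, a chemokine receptor whose signalling Slit and Robo can damp, rose by 1.60 ± 0.30 at 6 h (adjusted p = 0.00771) and by 2.01 ± 0.30 at 18 h, 4.04-fold (adjusted p = 0.00175). The plexin-binding GTPases moved apart: RND3 rose by 1.75 ± 0.39 and 1.70 ± 0.39, and RND1 fell by 0.78 ± 0.17 and 0.87 ± 0.17. ABL1 rose at 6 h, MICAL1 rose at 18 h, and the adaptor NCK1 fell at 18 h by 0.45 ± 0.08 (adjusted p = 0.00413). No gene of the 5 lists was called at 3 h against 0 h, where limma called 3 genes in all.

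**Figure D4:**
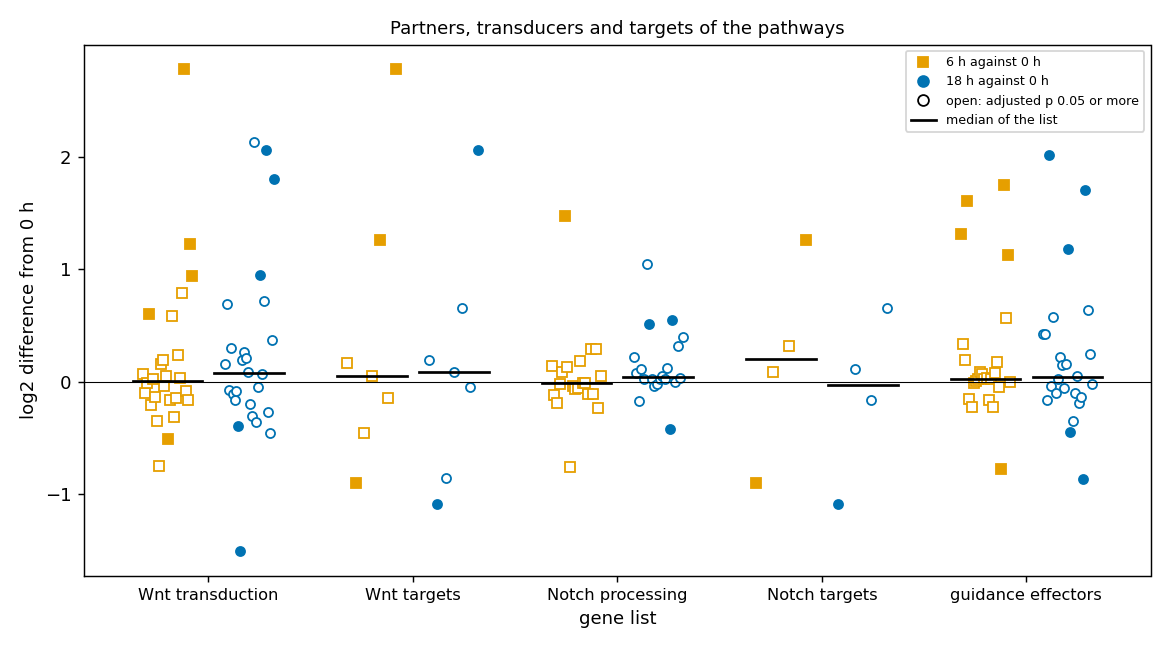
Log2 difference from 0 h (y axis) of each measured gene of the 5 pathway lists (x axis), with orange squares for 6 h and blue circles for 18 h, filled where the adjusted p was under 0.05, and a black bar at the median of the list. The medians of the Wnt transduction list were 0.01 and 0.08 and those of the guidance effectors 0.03 and 0.04, with called genes on both sides of 0 in these 2 lists.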

How the data were processed

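The deposited values are log2 expression per probe set after RMA (background correction, normalization across arrays and probe summarisation), as the labels state. RMA's version and the chip definition were not given in the sources used here. RMA pulls low signals together, so fold changes of dim genes can be understated.

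The table held 24128 probe sets. After 112 control probe sets were removed, 24016 were tested. A single symbol was annotated for 13292, several for 86 and none for 10638. Per gene, the probe set with the highest mean over the 12 arrays was used. All 45 symbols were found in the RefSeq buffalo annotation, of which no coordinates or sequences were used.

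The fit covered all 12 arrays and the 4 group means, in limma 3.58.1 in R 4.3.3 (lmFit, contrasts.fit, eBayes), with two-sided p adjusted by Benjamini-Hochberg over all 24016 probe sets within a comparison. Differences are given ± SE. The fit was also run on simulated data with independent normal values. These lack the correlation between genes and the near-alike controls of the real arrays, so they do not show how stable the calls are. The number of arrays limits the precision.

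The genes, the pathway and marker lists and the naming rule were chosen with earlier results of these data known. Genes named with values were those called in any comparison, the 2 largest uncalled rises and falls at each time, and 24 fixed genes of which 16 were measured. From the pathway lists the genes with the lowest adjusted p were named, and AXIN2 and HEY1 were added as well-known targets. The alternatives tried were leaving out the 40% of probe sets with the lowest means, repeated quantile normalization, eBayes with trend and robust, a replicate block, adjustment over genes, the mean of a gene's probe sets, control replicates 1 and 4 averaged, each array left out, and, chosen after seeing the data, both 3 h arrays left out. An annotated symbol was required, so NOTCH1, WNT5A, SEMA3A, SEMA3F, PLXND1, EFNB2, EPHB4 and UNC5B are not analysed here.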

Additional observations from a re-analysis of the deposited data

Results flagged for a closer look

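In the 4 control arrays, 1 array stood apart from the other 3 by Dixon's ratio for 6 of the 45 genes. Chance alone gives this for about 1 in 20 genes. DLL4 was low in control replicate 3 (8.36, others 8.68 to 8.72), and so was PLXNB2 (9.84, others 10.22 to 10.25). DKK1 was high in the same array (6.27, others 5.12 to 5.30). FZD10 was low in control replicate 1 (4.75, others 5.29 to 5.36), EFNA5 was high in control replicate 4 (6.84, others 6.66 to 6.69) and UNC50 was high in control replicate 2 (9.61, others 9.37 to 9.40). Groups at 3, 6 and 18 h had too few arrays for this check.

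The arrays at 18 h and at 3 h after cloprostenol differed for 3 genes, by limma's test of that difference. No untreated CL were collected at these times. The difference at 18 h minus that at 3 h was 2.51 for NTN4 (adjusted p = 0.0123), 0.81 for FZD3 (adjusted p = 0.038) and -1.07 for FZD4 (adjusted p = 0.0356). For FZD4 the arrays at 3 h were at 8.12 and 9.11, so part of the size rests on 3 h replicate 3, without which it was -0.58.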

How the results depend on the processing

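Each array left out in turn gave 2 to 9 called genes at 6 h, 4 to 14 at 18 h, 0 to 1 at 3 h, 0 to 1 at 6 h against 3 h, 1 to 5 at 18 h against 3 h, 0 to 0 at 18 h against 6 h, and 3 to 14 in the F test. At 6 h, 2 remained without control replicate 1, control replicate 4, or 6 h replicate 1 or 2, and 3 without 6 h replicate 3. At 18 h, 4 remained without 18 h replicate 1, 7 without replicate 2 and 5 without replicate 3, control replicate 1 or control replicate 4. At 18 h against 3 h, 1 remained without control replicate 1, 2 or 4 or 18 h replicate 1 or 3, and 5 were called without 3 h replicate 1. With control replicates 1 and 4 averaged the counts were 2 at 6 h (PLXNC1 and DLL4), 6 at 18 h, 1 at 18 h against 3 h and 3 in the F test. The filter, repeated normalization, moderation, gene-level and 3 h array alternatives kept every count within 1.5 times, at 7 to 9 for 6 h and 8 to 12 for 18 h. No called difference changed sign, and of the values of the 27 named genes against 0 h, with the 3 calls at 18 h against 3 h, 99 lost their call, 12 gained one and 1520 kept their side of the threshold. Outside these values, FZD1 gained calls at 6 h and 18 h, FZD4 and DKK1 at 6 h against 3 h, and ROBO4, WNT2B, NRP2 and DKK1 at 18 h against 3 h. The filter gave no value for the 13 genes below its limit, among them EFNA4, FZD3, ROBO2 and DKK1.

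With the replicate number as a block, 1 gene was called at 6 h (PLXNC1), 5 at 18 h (SEMA6D, PLXNC1, EFNA1, EFNA4 and NTN4), 0 at 18 h against 3 h (NTN4 at adjusted p = 0.0529) and 3 in the F test. The numbers are not shown to pair the animals, since correlations of same-numbered deviations ran from -0.26 to 0.19 and 6 of 18 comparisons of an array with another group were highest for its own number.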
